A study of Mus musculus with 10 samples.

Results

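The genes described here are 34 carriers of amino acids, peptides and small organic solutes of the solute carrier (Slc) families Slc1, Slc3, Slc6, Slc7, Slc15, Slc16, Slc36, Slc38 and Slc43. They are a list of gene symbols, and no threshold on their values was used, but the list was drawn up with earlier results of these data known. All 34 symbols were found among the 32074 of the expression table, and 30 of them were tested, having a mean over all 10 libraries of 1 TPM or more. TPM are transcript levels per gene length that sum to 1000000 in a library, so levels of different carriers can be set side by side.

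The study asked how microglia in culture respond to small extracellular vesicles (sEVs) carried in the blood of mice with a nerve injury. Primary microglia, the resident macrophages of the brain, came from the cortex of CD-1 pups at postnatal day 2 to 4, and were cultured with 10% serum depleted of exosomes while treated for 24 h. The SNI-sEV group (3 libraries) received 1 µg of serum sEVs of mice with spared nerve injury, a surgical model of neuropathic pain. The sham-sEV group (3 libraries) received 1 µg of serum sEVs of sham-operated mice. The PBS group (4 libraries) received buffer without vesicles. The strain and age of the serum donors, and whether the vesicles of a group came from 1 preparation, are not given in the sources used here. The labels call the libraries biological replicates and do not say whether they came from separate cultures, so p-values measure the spread between these libraries. Anything shared by all libraries of a group, such as its vesicle preparation, cannot be told apart from its treatment.

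Amino acid carriers set how much substrate reaches protein synthesis, glutathione, nitric oxide and the lysosomal sensing of nutrients. The light chains of family Slc7 work as a pair with the heavy chain Slc3a2 and exchange one amino acid for another. Carriers of families Slc1, Slc6 and Slc38 are driven by sodium, and those of family Slc15 and some of family Slc36 by protons. Several carriers of families Slc15 and Slc36 lie in the lysosomal membrane. In microglia, release of glutamate in exchange for cystine and uptake of arginine are known to accompany activation.

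Cells given sham sEVs differed from cells given PBS in most of the carrier transcripts, as they did in most of all genes tested. Cells given SNI sEVs differed from PBS in few carriers, as in few of all genes. In sham-sEV against PBS cells, 10 of the 30 tested carriers were higher and 12 were lower (limma on log2(TPM + 1), adjusted p under 0.05 over all 14806 genes tested). Carriers that were higher made up 33.3% of those tested, where 16.5% of all genes were higher, and carriers that were lower made up 40.0%, where 52.5% of all genes were lower. In SNI-sEV against sham-sEV cells, 11 carriers were higher and 9 were lower, that is 36.7% and 30.0%, where the shares over all genes were 49.9% and 15.7%. In SNI-sEV against PBS cells, 1 carrier was higher (Slc7a7) and 1 was lower (Slc1a5), 3.33% each, near the shares over all genes of 2.97% and 2.36%. These counts come from the fit without a replicate block. With the block, in which same-numbered SNI-sEV and PBS libraries are taken as paired, neither passed (Slc7a7 0.074, Slc1a5 0.073), and Slc16a10 passed as higher (0.048).

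The median absolute log2 fold change of the carriers was 0.56 in sham-sEV against PBS cells, where that of all genes tested was 0.37. It was 0.60 in SNI-sEV against sham-sEV cells, where all genes gave 0.35, and 0.05 in SNI-sEV against PBS cells, where all genes gave 0.09. The signed median of the carriers was 0.00 in sham-sEV against PBS cells, while that of all genes was -0.25. That shift depends on the scaling: with the libraries rescaled by median of ratios, the median of all genes was 0.02, and 16 carriers were then higher and 8 lower. Of all 14806 genes, 5003 were higher and 4345 lower with median of ratios. With quantile normalization, 15 carriers were higher and 10 lower, where 4307 of all genes were higher and 4883 lower. In SNI-sEV against sham-sEV cells, the all-gene median was 0.24 on the TPM scale and -0.04 with median of ratios. There, 9 carriers were higher and 18 lower with median of ratios, and 9 higher and 13 lower with quantile normalization. Of all genes, 3920 were higher and 4820 lower with the first of these scalings, and 4373 and 4130 with the second. The comparisons share libraries, sham sEV in one pair and PBS in another, so their values are given side by side and are not separate evidence of each other.

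The carriers with a fold change of 2 or more in sham-sEV against PBS cells were 7 that were higher (Slc6a12, Slc7a5, Slc7a11, Slc15a3, Slc7a7, Slc1a4 and Slc7a1) and 4 that were lower (Slc43a3, Slc1a5, Slc6a8 and Slc38a3). For each of these 11, the call and its direction held in sham-sEV against PBS cells and in SNI-sEV against sham-sEV cells under every alternative in which the gene was tested, which were 20 for each except Slc38a3, with 19. The authors' deposited table of differential genes lists 7.40% of all 32074 genes, tested here or not, and, of the 34 carriers, these same 11. Its fold changes of these 11 equal those given here, so that list is not separate evidence. The heat map shows all tested carriers in every library.

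**Figure D1:**
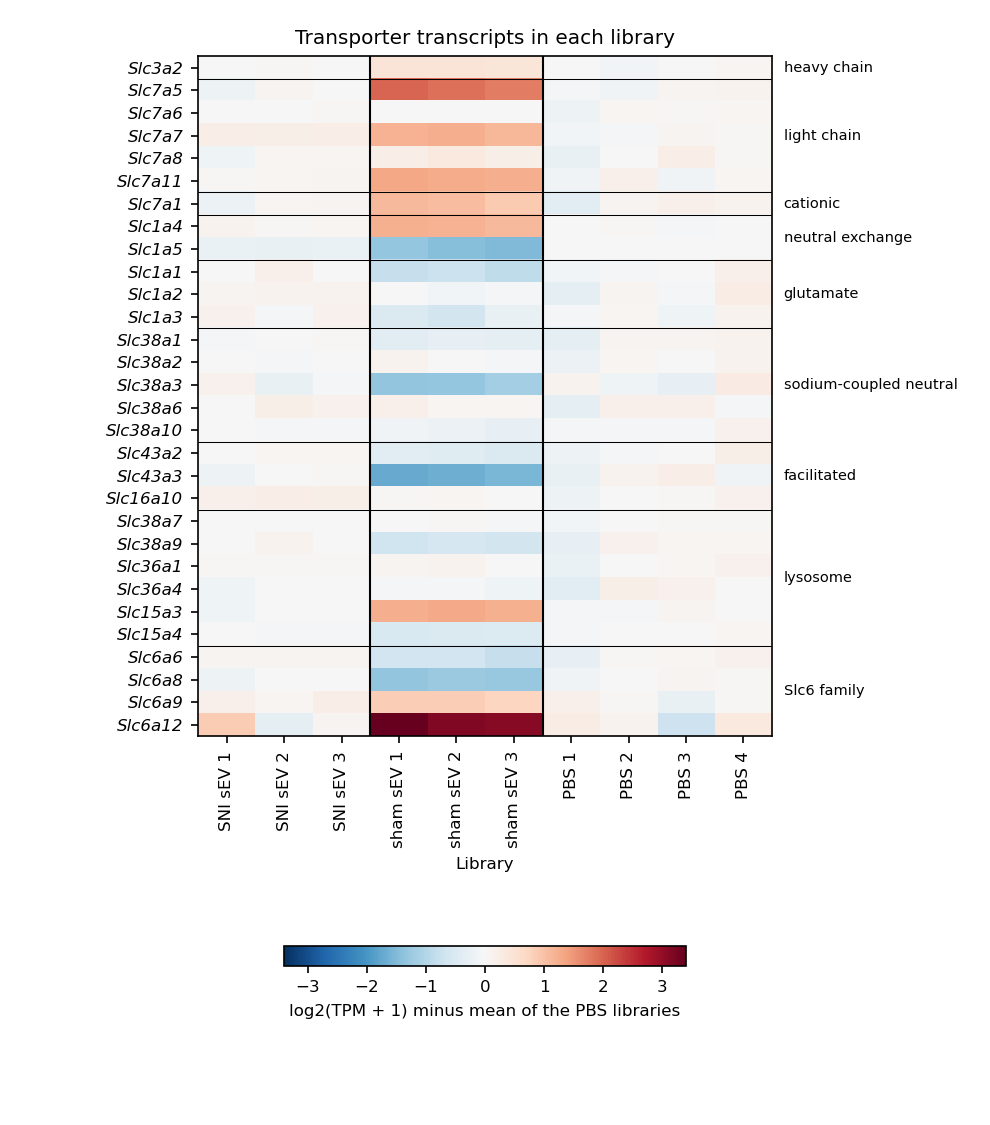
Level of the 30 tested carriers in each of the 10 libraries, as log2(TPM + 1) minus the mean of the 4 PBS libraries, with red above and blue below that mean and rows grouped by role. The 3 sham-sEV columns are colored in most groups of carriers, with Slc6a12 the darkest, while the SNI-sEV columns are nearly as pale as the PBS columns.

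Most of the heterodimeric exchangers were higher in sham-sEV cells. Of the 6 light chains listed, 5 were tested, and 4 of them (Slc7a5, Slc7a7, Slc7a8 and Slc7a11) were higher in sham-sEV than in PBS cells, with none lower. Between SNI-sEV and sham-sEV cells, 3 were lower in SNI-sEV cells (Slc7a5, Slc7a7 and Slc7a11) and none higher. The heavy chain Slc3a2 (GRCm38 19:8706882-8723369, minus strand), which brings the light chains to the cell surface, was at 57.4, 58.8 and 57.5 TPM in the SNI-sEV libraries, 78.6, 77.5 and 76.9 TPM in the sham-sEV libraries and 58.1, 54.0, 57.5 and 60.0 TPM in the PBS libraries. All sham-sEV libraries lay above all others, and the SNI-sEV and PBS libraries overlapped. Slc3a2 was 1.35-fold higher in sham-sEV than in PBS cells (limma log2 fold change 0.43 ± 0.05, adjusted p = 8e-06) and 1.34-fold lower in SNI-sEV than in sham-sEV cells (-0.42 ± 0.05, adjusted p = 2.3e-05).

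Slc7a5, the LAT1 light chain for leucine and other large neutral amino acids (GRCm38 8:121881150-121907694, minus strand), changed more than any other light chain. It was at 14.8, 18.2 and 17.1 TPM in the SNI-sEV libraries, 69.9, 64.7 and 59.2 TPM in the sham-sEV libraries and 16.0, 15.6, 18.0 and 18.5 TPM in the PBS libraries. The lowest sham-sEV library was above every other library, and the SNI-sEV and PBS libraries overlapped. The mean was 16.7 ± 1.73 TPM in SNI-sEV cells, 64.6 ± 5.36 TPM in sham-sEV cells and 17.0 ± 1.44 TPM in PBS cells (SD, n = 3, 3 and 4). It was 3.64-fold higher in sham-sEV than in PBS cells (limma log2 fold change 1.87 ± 0.09, adjusted p = 5.4e-09) and 3.71-fold lower in SNI-sEV than in sham-sEV cells (-1.89 ± 0.09, adjusted p = 1.3e-08). In SNI-sEV against PBS cells the log2 fold change was -0.03 ± 0.09, adjusted p = 0.91.

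Slc7a11 is the xCT light chain of system xc-, which takes up cystine and releases glutamate (GRCm38 3:49892526-50443614, minus strand). It was at 11.2, 11.3 and 11.6 TPM in the SNI-sEV libraries, 28.2, 27.4 and 26.9 TPM in the sham-sEV libraries and 9.83, 12.4, 9.77 and 11.4 TPM in the PBS libraries. The sham-sEV libraries stood apart, and the SNI-sEV libraries lay within the PBS range. Slc7a11 was 2.42-fold higher in sham-sEV than in PBS cells (limma log2 fold change 1.27 ± 0.08, adjusted p = 5.9e-08) and 2.30-fold lower in SNI-sEV than in sham-sEV cells (-1.20 ± 0.08, adjusted p = 2.5e-07).

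Slc7a7, the y+LAT1 light chain that passes arginine and other cationic amino acids out of the cell (GRCm38 14:54369442-54417780, minus strand), was the most abundant light chain in every library. It was at 48.6, 48.1 and 49.0 TPM in the SNI-sEV libraries, 95.3, 99.0 and 93.2 TPM in the sham-sEV libraries and 39.1, 40.7, 44.5 and 42.7 TPM in the PBS libraries. Here the 3 groups did not overlap: sham-sEV was highest, PBS lowest, and SNI-sEV between them and nearer to PBS. Slc7a7 was 2.27-fold higher in sham-sEV than in PBS cells (limma log2 fold change 1.18 ± 0.05, adjusted p = 3.5e-09) and 1.95-fold lower in SNI-sEV than in sham-sEV cells (-0.96 ± 0.06, adjusted p = 5e-08). It was also 1.16-fold higher in SNI-sEV than in PBS cells (0.22 ± 0.05, adjusted p = 0.039). That last call rests on a narrow margin: over the alternatives its adjusted p ran between 0.0094 and 0.15, with a replicate block it was 0.074, and it was lost without any 1 of the SNI-sEV libraries (0.13 to 0.15), any 1 of the sham-sEV libraries (0.063 to 0.070), PBS replicate 2 (0.060) or PBS replicate 4 (0.051).

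The remaining light chains had smaller fold changes. Slc7a8, the LAT2 light chain for neutral amino acids, was at 27.5 to 32.1 TPM in SNI-sEV cells, 35.3 to 38.6 TPM in sham-sEV cells and 25.7 to 35.9 TPM in PBS cells. It was 1.19-fold higher in sham-sEV than in PBS cells (limma log2 fold change 0.25 ± 0.10, adjusted p = 0.045), with overlapping groups. That call was lost in 8 of the 10 fits that left out a library (all but those without PBS replicate 3 or SNI-sEV replicate 1), with an adjusted p between 0.055 and 0.15. In SNI-sEV against sham-sEV cells Slc7a8 gave -0.25 ± 0.11, adjusted p = 0.054. This passed as lower in 7 of 20 alternatives, among them median of ratios (-0.56, adjusted p = 0.00019), quantile normalization (-0.41, adjusted p = 0.0020) and the replicate block (0.032), and over all 20 the adjusted p ran up to 0.19. Slc7a6, the y+LAT2 light chain, was at 8.16 to 8.36 TPM in SNI-sEV cells, 8.21 to 8.30 TPM in sham-sEV cells and 7.18 to 8.59 TPM in PBS cells, with a log2 fold change of 0.01 in sham-sEV against PBS cells (adjusted p = 0.88). Under median of ratios and quantile normalization Slc7a6 passed as higher in sham-sEV cells, with log2 fold changes of 0.29 and 0.31. Slc7a10, the Asc-1 light chain for small neutral amino acids such as D-serine, had a mean of at most 0.0571 TPM in any group and was not tested.

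Summed over the tested light chains, TPM came to 116 ± 4.38 in SNI-sEV cells, 233 ± 8.63 in sham-sEV cells and 109 ± 8.15 in PBS cells. The ratio of that sum to the heavy chain Slc3a2 was 2.00 ± 0.0679 in SNI-sEV libraries, 3.00 ± 0.0893 in sham-sEV libraries and 1.90 ± 0.155 in PBS libraries. Slc3a2 thus changed by less than that sum did, though by more than Slc7a6 and Slc7a8. Slc7a5 made up 14.4% of light chain TPM in SNI-sEV cells, 27.7% in sham-sEV cells and 15.7% in PBS cells. The share of Slc7a8 was 26.4% in SNI-sEV cells, 15.7% in sham-sEV cells and 28.3% in PBS cells. The sums and ratios of carriers were picked with the values known and are given without a test. A ratio or share within a library does not depend on the scaling between libraries.

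Slc7a1, the cationic carrier CAT1 that takes up arginine without a heavy chain (GRCm38 5:148327410-148399904, minus strand), was at 13.2, 16.0 and 16.4 TPM in the SNI-sEV libraries, 34.3, 33.0 and 29.2 TPM in the sham-sEV libraries and 11.6, 16.4, 17.6 and 16.8 TPM in the PBS libraries. The sham-sEV libraries were the highest and the SNI-sEV libraries lay within the PBS range. It was 2.02-fold higher in sham-sEV than in PBS cells (limma log2 fold change 1.01 ± 0.13, adjusted p = 3.2e-05) and 2.05-fold lower in SNI-sEV than in sham-sEV cells (-1.04 ± 0.14, adjusted p = 5.7e-05). The plot of levels per library shows these genes beside the other carriers that changed most.

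**Figure D2:**
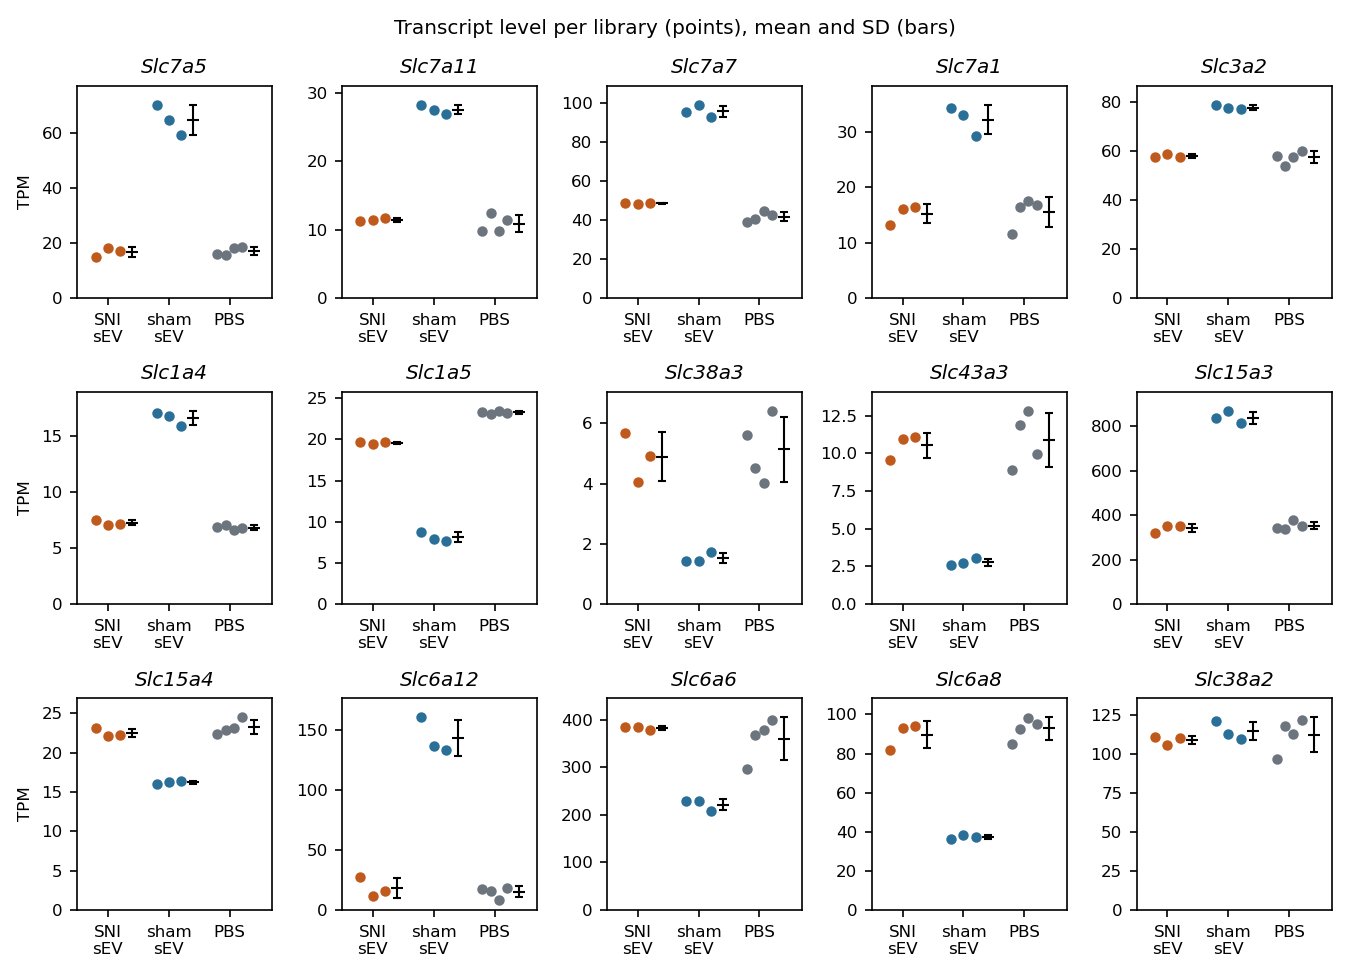
TPM of 15 carriers in each library (points, linear axes starting at 0), with the mean and SD of the 3 SNI-sEV, 3 sham-sEV and 4 PBS libraries beside them. In 14 panels the sham-sEV points lie apart from both other groups, and in the panel of Slc38a2 the 3 groups overlap.

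Promoter sequence was at hand for 26 of the 34 carriers (RefSeq, build GRCm38.p6, windows of 250 bases before to 50 after each annotated start). The stretches printed here hold the match of 2 motifs in carriers that were higher in sham-sEV cells. One is the C/EBP-ATF response element, the letters TGATGNAA on either strand, through which ATF4 is known to act on amino acid carrier genes. The other is the kappaB site, the binding motif of NF-kappaB. Capitals mark the matches. All 4 stretches read 5′ to 3′ on the strand of the gene, which is plus for Slc6a12 (chr6:121342394-121342493) and minus for Slc7a11 (chr3:50443624-50443723), Slc1a4 (chr11:20332704-20332803) and Slc7a7 (chr14:54417803-54417952).
Slc7a11: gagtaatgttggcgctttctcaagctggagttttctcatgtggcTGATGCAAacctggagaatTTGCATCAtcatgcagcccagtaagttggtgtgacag
Slc1a4: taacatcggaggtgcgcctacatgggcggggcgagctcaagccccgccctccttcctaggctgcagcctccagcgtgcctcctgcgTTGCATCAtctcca
Slc7a7: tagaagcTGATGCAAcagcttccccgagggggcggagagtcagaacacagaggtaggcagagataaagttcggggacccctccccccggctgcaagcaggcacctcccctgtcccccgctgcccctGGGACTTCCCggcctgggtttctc
Slc6a12: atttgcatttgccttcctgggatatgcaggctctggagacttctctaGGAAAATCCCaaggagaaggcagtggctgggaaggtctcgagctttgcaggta

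The C/EBP-ATF element was found in 3 of the 26 carriers (Slc1a4, Slc7a11 and Slc7a7), and in 4.51% of the 27025 genes with a window. Slc7a11 holds 2 copies in opposite orientation, and Slc1a4 a copy next to its start. Slc7a7 holds a copy together with a kappaB match in the stretch printed, and a further match (TGATGAAA) in another of its windows. All 3 of these carriers were higher in sham-sEV than in PBS cells. So were Slc3a2, Slc7a1, Slc7a8, Slc6a9 and Slc6a12, whose windows hold no C/EBP-ATF match. A kappaB match was found in 6 carriers (Slc1a1, Slc36a4, Slc43a2, Slc6a12, Slc7a10 and Slc7a7), and in 9.55% of genes. Of these, Slc6a12 and Slc7a7 were higher, and Slc1a1 and Slc43a2 lower, in sham-sEV than in PBS cells. The antioxidant response element core, TGACNNNGC, was found in 6 carriers (Slc36a1, Slc38a2, Slc43a1, Slc6a9, Slc7a1 and Slc7a6) and in 14.0% of genes. Of these carriers, Slc6a9 and Slc7a1 were higher in sham-sEV than in PBS cells, and none was called lower. The interferon-stimulated response element, GAAANNGAAA, was found in 0 carriers and in 3.99% of genes. A match describes letters in the window and does not show that a factor binds there. Slc7a5, Slc15a3, Slc43a3, Slc1a5, Slc6a8, Slc38a1, Slc38a3 and Slc6a6 have no window in the table.

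The neutral amino acid exchangers Slc1a4 and Slc1a5 moved in opposite directions. Slc1a4 (ASCT1, for serine, alanine and cysteine; GRCm38 11:20302180-20332713, minus strand) was at 7.48, 7.07 and 7.17 TPM in the SNI-sEV libraries, 17.0, 16.8 and 15.9 TPM in the sham-sEV libraries and 6.84, 7.03, 6.56 and 6.78 TPM in the PBS libraries. Its sham-sEV libraries were the highest, and the SNI-sEV libraries lay just above the PBS libraries, with no overlap. Slc1a4 was 2.25-fold higher in sham-sEV than in PBS cells (limma log2 fold change 1.17 ± 0.06, adjusted p = 8.4e-09) and 2.13-fold lower in SNI-sEV than in sham-sEV cells (-1.09 ± 0.06, adjusted p = 4e-08). In SNI-sEV against PBS cells it gave 0.08 ± 0.06, adjusted p = 0.52.

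Slc1a5 (ASCT2, a main route of glutamine into proliferating cells; GRCm38 7:16781340-16798274, plus strand) was at 19.7, 19.4 and 19.7 TPM in the SNI-sEV libraries, 8.80, 7.95 and 7.63 TPM in the sham-sEV libraries and 23.4, 23.2, 23.4 and 23.2 TPM in the PBS libraries. The 3 groups did not overlap: PBS was highest, SNI-sEV next and sham-sEV lowest. Slc1a5 was 2.66-fold lower in sham-sEV than in PBS cells (limma log2 fold change -1.41 ± 0.06, adjusted p = 1.4e-09) and 2.26-fold higher in SNI-sEV than in sham-sEV cells (1.18 ± 0.06, adjusted p = 1.8e-08). It was 1.18-fold lower in SNI-sEV than in PBS cells (-0.24 ± 0.06, adjusted p = 0.035). Over the alternatives the adjusted p of this last difference ran between 0.024 and 0.15. It was 0.073 with a replicate block, 0.12 to 0.15 without any 1 of the SNI-sEV libraries, 0.095 without PBS replicate 3, 0.054 without PBS replicate 4 and 0.062 without sham-sEV replicate 2. In the authors' deposited table Slc1a5 has a signed fold change of -1.18 for SNI over control with an FDR of 0.0076. In the authors' deposited table Slc7a7 has an FDR of 0.14 in that comparison.

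Within a library, the ratio of Slc1a4 to Slc1a5 was 0.370 ± 0.00911 in SNI-sEV libraries, 2.04 ± 0.0933 in sham-sEV libraries and 0.292 ± 0.00974 in PBS libraries. Slc1a4 exceeded Slc1a5 in the 3 sham-sEV libraries alone, where the ratio was 1.94 to 2.11. It was 0.364 to 0.380 in the SNI-sEV libraries and 0.280 to 0.304 in the PBS libraries, so these also did not overlap. The plot of ratios shows this pair beside 4 others.

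**Figure D3:**
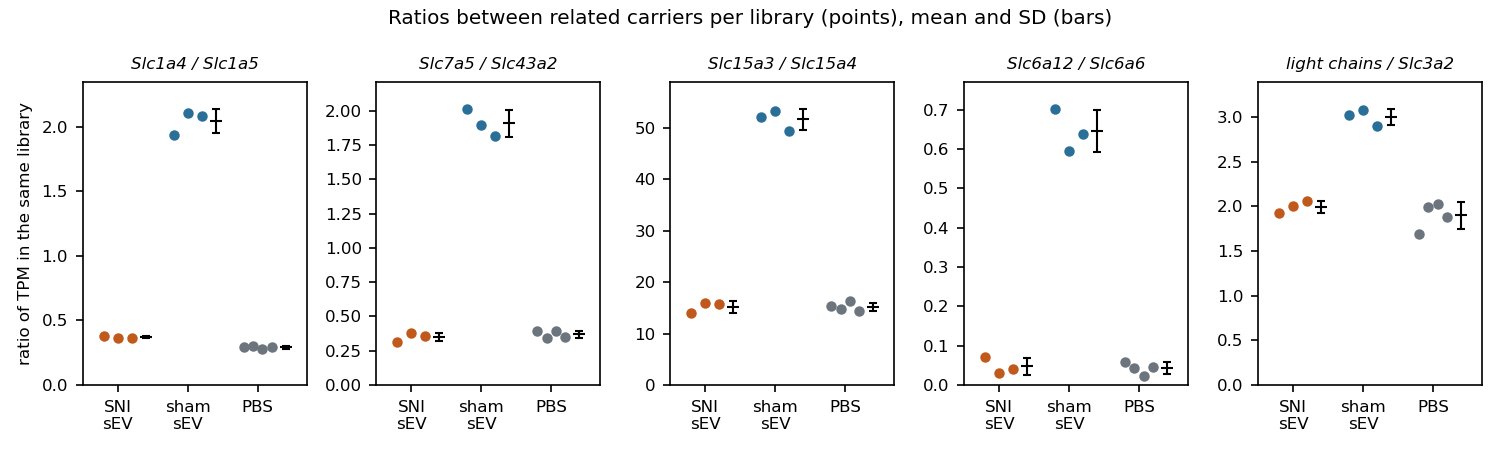
Ratio of TPM between related carriers in the same library (points, linear axes starting at 0), with mean and SD of the 3 SNI-sEV, 3 sham-sEV and 4 PBS libraries. In all 5 panels the sham-sEV libraries are highest, and the SNI-sEV and PBS libraries overlap in each panel except Slc1a4 to Slc1a5.

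Of the 3 high-affinity glutamate carriers, 2 (Slc1a1 and Slc1a3) were lower in sham-sEV than in PBS cells and higher in SNI-sEV than in sham-sEV cells, Slc1a3 on the TPM scale only. Slc1a1 was at 7.85, 9.12 and 7.89 TPM in the SNI-sEV libraries, 4.21, 4.43 and 3.98 TPM in the sham-sEV libraries and 7.47, 7.63, 7.91 and 9.13 TPM in the PBS libraries. Its sham-sEV libraries were all below the others, and the SNI-sEV and PBS libraries overlapped. It was 1.73-fold lower in sham-sEV than in PBS cells (limma log2 fold change -0.79 ± 0.08, adjusted p = 5.8e-06) and 1.78-fold higher in SNI-sEV than in sham-sEV cells (0.83 ± 0.09, adjusted p = 8.7e-06). Slc1a3, known as GLAST in astrocytes, was at 16.7, 14.7 and 16.9 TPM in the SNI-sEV libraries, 10.5, 9.32 and 12.4 TPM in the sham-sEV libraries and 14.7, 15.8, 13.4 and 16.5 TPM in the PBS libraries. It was 1.37-fold lower in sham-sEV than in PBS cells (-0.46 ± 0.10, adjusted p = 0.0015) and 1.46-fold higher in SNI-sEV than in sham-sEV cells (0.55 ± 0.11, adjusted p = 0.00084), with no overlap of the sham-sEV libraries with either group. Both calls of Slc1a3 were lost under the other scalings. In sham-sEV against PBS cells the adjusted p was 0.16 with median of ratios and 0.13 with quantile normalization, and in SNI-sEV against sham-sEV cells 0.061 and 0.057. Slc1a2, the main glutamate carrier of astrocytes, was at 3.98 to 4.14 TPM in SNI-sEV cells, 3.43 to 3.76 TPM in sham-sEV cells and 2.77 to 4.63 TPM in PBS cells, and gave -0.04 ± 0.12, adjusted p = 0.77 in sham-sEV against PBS cells. Its log2 fold change there was 0.31 with quantile normalization, where it passed as higher.

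Markers of astrocytes moved the same way as Slc1a3. The 10 astrocyte markers summed to 148 to 154 TPM in SNI-sEV libraries, 77.3 to 88.2 TPM in sham-sEV libraries and 129 to 150.3 TPM in PBS libraries, and all 9 tested were lower in sham-sEV than in PBS cells. Markers of the oligodendrocyte lineage summed to 652 to 725 TPM in SNI-sEV, 426 to 474 TPM in sham-sEV and 595 to 682 TPM in PBS libraries, with 9 of 10 lower in sham-sEV than in PBS cells. The part of these cells in the values of the carriers was not tested. In bulk RNA, fewer cells of a type and less RNA per cell cannot be told apart. The 10 microglial markers were present in every group, at a sum of 8109 to 8453 TPM in SNI-sEV libraries, 4947 to 5045 TPM in sham-sEV libraries and 8083 to 8620 TPM in PBS libraries. In sham-sEV against PBS cells 3 of them were higher and 6 lower, where 16.5% of all genes were higher and 52.5% lower. The median log2 fold change there was -0.56 for astrocyte, -0.52 for oligodendrocyte-lineage and -0.39 for microglial markers, and -0.25 for all genes. Markers were called on the TPM scale only. Neuronal markers summed to at most 34.05 TPM, those of endothelium to at most 35.3 TPM and those of fibroblasts and mural cells to at most 13.5 TPM in any library. Of these lists, 1 of 5, 2 of 2 and 1 of 1 tested markers were lower in sham-sEV than in PBS cells. No marker was at 0 in all libraries. Genes at 1 TPM or more numbered 14869 to 14900 in SNI-sEV libraries, 14117 to 14166 in sham-sEV libraries and 14577 to 14973 in PBS libraries.

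The sodium-coupled neutral carriers of family Slc38 split by gene. Of the 7 listed in this role, 5 were tested, and 3 (Slc38a1, Slc38a3 and Slc38a10) were lower in sham-sEV than in PBS cells, with none higher. Slc38a3 alone of these kept its call under both other scalings. Slc38a3 (SNAT3, a glutamine carrier that can run in both directions; GRCm38 9:107650634-107669530, minus strand) was at 5.68, 4.06 and 4.93 TPM in the SNI-sEV libraries, 1.41, 1.43 and 1.72 TPM in the sham-sEV libraries and 5.60, 4.51, 4.04 and 6.40 TPM in the PBS libraries. The sham-sEV libraries were all below the others. It was 2.41-fold lower in sham-sEV than in PBS cells (limma log2 fold change -1.27 ± 0.14, adjusted p = 7.7e-06) and 2.32-fold higher in SNI-sEV than in sham-sEV cells (1.22 ± 0.15, adjusted p = 2.4e-05). Slc38a3 is also known from astrocytes, whose markers were lower too, while the astrocyte carrier Slc1a2 was not called on the TPM scale. The part of astrocytes in the values of Slc38a3 was not tested.

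Slc38a1 (SNAT1, which takes up glutamine) was at 20.0, 21.4 and 22.0 TPM in the SNI-sEV libraries, 16.3, 17.3 and 16.7 TPM in the sham-sEV libraries and 16.8, 22.7, 22.8 and 23.1 TPM in the PBS libraries. PBS replicate 1 was near the sham-sEV libraries, so those groups overlapped. It was 1.25-fold lower in sham-sEV than in PBS cells (limma log2 fold change -0.32 ± 0.10, adjusted p = 0.013), a size near the shift of all genes, and with median of ratios the log2 fold change was -0.02 (adjusted p = 0.80). In SNI-sEV against sham-sEV cells it gave 0.32 ± 0.11, adjusted p = 0.021, and that call was lost under both scalings and in 4 of the 10 fits without 1 library (without sham-sEV replicate 1 or 3, 0.063 and 0.053, and without SNI-sEV replicate 2 or 3, 0.056 and 0.069). Slc38a10, among the more abundant carriers here, was at 106, 102 and 102 TPM in the SNI-sEV libraries, 99.2, 93.4 and 88.2 TPM in the sham-sEV libraries and 103, 104, 105 and 119 TPM in the PBS libraries. It was 1.15-fold lower in sham-sEV than in PBS cells (-0.20 ± 0.06, adjusted p = 0.013), but with median of ratios its log2 fold change was 0.11 (adjusted p = 0.12), and without sham-sEV replicate 3 its adjusted p was 0.068. Between SNI-sEV and sham-sEV cells it gave 0.15 ± 0.07, adjusted p = 0.067, and passed in 7 of 20 alternatives, as higher with the replicate block (0.030) but as lower with median of ratios (log2 fold change -0.16, adjusted p = 0.039).

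Slc38a2 (SNAT2), a carrier known for its rise under amino acid starvation, did not pass in any comparison. It was at 106 to 111 TPM in SNI-sEV cells, 110.0 to 121 TPM in sham-sEV cells and 96.6 to 122 TPM in PBS cells, and the 3 groups overlapped. Its limma log2 fold change was 0.03 ± 0.07, adjusted p = 0.71 in sham-sEV against PBS cells and -0.07 ± 0.08, adjusted p = 0.45 in SNI-sEV against sham-sEV cells. With median of ratios alone it passed in both, at 0.34 and -0.38. Slc38a6 was at 9.03 to 10.6 TPM in SNI-sEV cells, 9.50 to 10.2 TPM in sham-sEV cells and 7.10 to 10.3 TPM in PBS cells and passed in none on the TPM scale. In sham-sEV against PBS cells it passed as higher with median of ratios (log2 fold change 0.39, adjusted p = 0.0039) and with quantile normalization (0.40, adjusted p = 0.0025). Between SNI-sEV and sham-sEV cells both scalings gave -0.28 (adjusted p = 0.037 and 0.028). Slc38a4 and Slc38a5 had means of at most 0.0571 TPM and were not tested.

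Among carriers that need no ion gradient, 2 of the 3 tested of 4 listed (Slc43a2 and Slc43a3) were lower in sham-sEV than in PBS cells. Slc43a3, a carrier of purine nucleobases (GRCm38 2:84936579-84958509, plus strand), had the largest fall of all tested carriers. It was at 9.53, 10.9 and 11.1 TPM in the SNI-sEV libraries, 2.59, 2.72 and 3.03 TPM in the sham-sEV libraries and 8.88, 11.9, 12.8 and 9.93 TPM in the PBS libraries. The highest sham-sEV library was far under the lowest of the others, and the SNI-sEV and PBS libraries overlapped. Slc43a3 was 3.12-fold lower in sham-sEV than in PBS cells (limma log2 fold change -1.64 ± 0.11, adjusted p = 1.4e-07) and 3.05-fold higher in SNI-sEV than in sham-sEV cells (1.61 ± 0.12, adjusted p = 4.3e-07). Slc43a2 (LAT4, for large neutral amino acids) was at 46.7 to 48.0 TPM in SNI-sEV cells, 32.6 to 34.8 TPM in sham-sEV cells and 40.9 to 52.5 TPM in PBS cells, and was 1.35-fold lower in sham-sEV than in PBS cells (-0.43 ± 0.07, adjusted p = 0.00028). With median of ratios this call had an adjusted p of 0.059. Slc43a1 was at or under 0.0571 TPM on average in each group and was not tested.

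LAT1 and LAT4 share large neutral substrates, and the ratio of Slc7a5 to Slc43a2 was 0.351 ± 0.0311 in SNI-sEV libraries, 1.91 ± 0.0975 in sham-sEV libraries and 0.370 ± 0.0248 in PBS libraries. The Slc7a5 transcript was the more abundant of that pair in sham-sEV libraries only. Slc16a10 (TAT1, for aromatic amino acids) was at 88.2 to 93.1 TPM in SNI-sEV cells, 79.1 to 82.5 TPM in sham-sEV cells and 69.8 to 87.6 TPM in PBS cells. It passed in no comparison on the TPM scale with all libraries and no block. In sham-sEV against PBS cells it gave 0.04 ± 0.07, adjusted p = 0.61, and with median of ratios 0.35 (adjusted p = 5.5e-05). In SNI-sEV against sham-sEV cells it gave 0.16 ± 0.07, adjusted p = 0.076. There it passed in 6 of 20 alternatives, as higher with the replicate block (0.036) or only the 2 groups (0.0052), but as lower with median of ratios (log2 fold change -0.16, adjusted p = 0.020). In SNI-sEV against PBS cells it gave 0.20 ± 0.07, adjusted p = 0.14. Over the alternatives that p ran between 0.038 and 0.38, and it was under 0.05 in 4 of the 20: both other scalings, the replicate block (0.048) and the fit without PBS replicate 4 (0.044).

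The lysosomal carriers were dominated by Slc15a3. Slc15a3 (PHT2, which moves histidine and small peptides out of the endolysosome; GRCm38 19:10839727-10859362, plus strand) was at 322, 353 and 351 TPM in the SNI-sEV libraries, 837, 869 and 814 TPM in the sham-sEV libraries and 344, 340.2, 377 and 353 TPM in the PBS libraries. The sham-sEV libraries were all far above the others, and the SNI-sEV and PBS libraries overlapped. It was 2.37-fold higher in sham-sEV than in PBS cells (limma log2 fold change 1.25 ± 0.05, adjusted p = 2e-09) and 2.45-fold lower in SNI-sEV than in sham-sEV cells (-1.29 ± 0.06, adjusted p = 4e-09). Its near relative Slc15a4 (PHT1), which mouse immune cells need for signalling from endosomal Toll-like receptors, went the other way. Slc15a4 was at 22.1 to 23.1 TPM in SNI-sEV cells, 16.1 to 16.5 TPM in sham-sEV cells and 22.4 to 24.5 TPM in PBS cells, 1.40-fold lower in sham-sEV than in PBS cells (-0.49 ± 0.05, adjusted p = 6.4e-06) and 1.36-fold higher in SNI-sEV than in sham-sEV cells (0.44 ± 0.06, adjusted p = 3.1e-05). The ratio of Slc15a3 to Slc15a4 was 15.2 ± 1.14 in SNI-sEV libraries, 51.7 ± 1.99 in sham-sEV libraries and 15.2 ± 0.793 in PBS libraries.

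Of the other lysosomal carriers, Slc38a9, which in human cells senses arginine for the kinase mTORC1, was at 5.65 to 6.14 TPM in SNI-sEV cells, 3.13 to 3.45 TPM in sham-sEV cells and 4.41 to 6.34 TPM in PBS cells. It was 1.54-fold lower in sham-sEV than in PBS cells (limma log2 fold change -0.62 ± 0.10, adjusted p = 0.0002) and 1.59-fold higher in SNI-sEV than in sham-sEV cells (0.67 ± 0.11, adjusted p = 0.00024). Slc38a7, Slc36a1 and Slc36a4 passed in no comparison. Slc38a7, which carries glutamine out of the lysosome in human cells, was at 43.6 to 44.1 TPM in SNI-sEV cells, 41.7 to 44.7 TPM in sham-sEV cells and 40.8 to 45.0 TPM in PBS cells. Slc36a1, a proton-coupled carrier of small amino acids, was at 20.1 to 20.3 TPM in SNI-sEV cells, 19.6 to 21.5 TPM in sham-sEV cells and 16.6 to 21.9 TPM in PBS cells. Slc36a4 was at 36.0 to 40.3 TPM in SNI-sEV cells, 36.0 to 38.0 TPM in sham-sEV cells and 30.9 to 45.5 TPM in PBS cells. It passed as lower in sham-sEV than in PBS cells only without PBS replicate 1 (log2 fold change -0.21, adjusted p = 0.0077), and over the alternatives that p ran up to 0.85. The calls of Slc38a7 and Slc36a1 depend on the scaling. With median of ratios and with quantile normalization both passed as higher in sham-sEV than in PBS cells, Slc38a7 at 0.30 and 0.11 and Slc36a1 at 0.37 and 0.28. Over the 6 lysosomal carriers on the TPM scale, 1 was higher and 2 were lower in sham-sEV cells relative to PBS cells, and 2 were higher and 1 lower in SNI-sEV than in sham-sEV cells.

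All 4 tested carriers of family Slc6 changed, 2 in each direction. Slc6a12, the betaine and GABA carrier known for its induction by hypertonic medium in kidney cells (GRCm38 6:121343076-121365775, plus strand), had the largest change of all tested carriers. It was at 27.4, 11.5 and 15.6 TPM in the SNI-sEV libraries, 160.2, 136 and 133 TPM in the sham-sEV libraries and 17.4, 16.0, 8.50 and 18.6 TPM in the PBS libraries. The lowest sham-sEV library was several-fold above every other library, and the SNI-sEV and PBS libraries overlapped. The mean was 18.2 ± 8.27 TPM in SNI-sEV cells, 143 ± 15.0 TPM in sham-sEV cells and 15.1 ± 4.55 TPM in PBS cells (SD, n = 3, 3 and 4). It was 9.23-fold higher in sham-sEV than in PBS cells (limma log2 fold change 3.21 ± 0.28, adjusted p = 1.2e-06) and 7.94-fold lower in SNI-sEV than in sham-sEV cells (-2.99 ± 0.30, adjusted p = 5.3e-06). SNI-sEV replicate 1 was above every PBS library, and in SNI-sEV against PBS cells the log2 fold change was 0.22 ± 0.28, adjusted p = 0.73. By mean TPM Slc6a12 ranked 3 among the carriers in sham-sEV cells, 17 in SNI-sEV cells and 19 in PBS cells.

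Slc6a6, the taurine carrier (GRCm38 6:91684053-91759066, plus strand), had the highest mean of all carriers in SNI-sEV and in PBS cells and ranked 2 in sham-sEV cells, after Slc15a3. It was at 385, 385 and 379 TPM in the SNI-sEV libraries, 228, 229 and 208 TPM in the sham-sEV libraries and 296, 368, 378 and 399.6 TPM in the PBS libraries. All sham-sEV libraries were below all others. It was 1.61-fold lower in sham-sEV than in PBS cells (limma log2 fold change -0.69 ± 0.09, adjusted p = 2.8e-05) and 1.73-fold higher in SNI-sEV than in sham-sEV cells (0.79 ± 0.09, adjusted p = 2.1e-05). Slc6a12 and Slc6a6 both bring in organic osmolytes, and the ratio of Slc6a12 to Slc6a6 was 0.0474 ± 0.0213 in SNI-sEV libraries, 0.645 ± 0.0537 in sham-sEV libraries and 0.0429 ± 0.0151 in PBS libraries.

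Slc6a8, the creatine carrier (GRCm38 X:73673150-73682502, plus strand), was at 81.6, 93.3 and 94.1 TPM in the SNI-sEV libraries, 36.2, 38.3 and 37.6 TPM in the sham-sEV libraries and 84.9, 92.7, 98.4 and 95.2 TPM in the PBS libraries. The sham-sEV libraries were all below the others, and the SNI-sEV and PBS libraries overlapped. It was 2.44-fold lower in sham-sEV than in PBS cells (limma log2 fold change -1.29 ± 0.07, adjusted p = 1e-08) and 2.36-fold higher in SNI-sEV than in sham-sEV cells (1.24 ± 0.07, adjusted p = 3.8e-08). Slc6a9, the glycine carrier GlyT1, was at 2.86, 2.64 and 3.01 TPM in the SNI-sEV libraries, 5.17, 5.18 and 4.70 TPM in the sham-sEV libraries and 2.86, 2.57, 1.89 and 2.57 TPM in the PBS libraries. It was 1.74-fold higher in sham-sEV than in PBS cells (0.80 ± 0.10, adjusted p = 2.4e-05) and 1.57-fold lower in SNI-sEV than in sham-sEV cells (-0.65 ± 0.11, adjusted p = 0.00026), without overlap of the sham-sEV libraries with either group.

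Summed over all 34 carriers, TPM came to 1608 ± 23.4 in SNI-sEV cells, 2108 ± 70.1 in sham-sEV cells and 1587 ± 111 in PBS cells. Slc15a3 made up on average 21.3% in SNI-sEV, 39.9% in sham-sEV and 22.3% in PBS libraries of that sum. The share of Slc6a6 was 23.8% in SNI-sEV, 10.5% in sham-sEV and 22.6% in PBS libraries. The share of Slc6a12 was 1.14% in SNI-sEV, 6.78% in sham-sEV and 0.961% in PBS libraries. The plot of fold changes sets the 3 comparisons side by side.

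**Figure D4:**
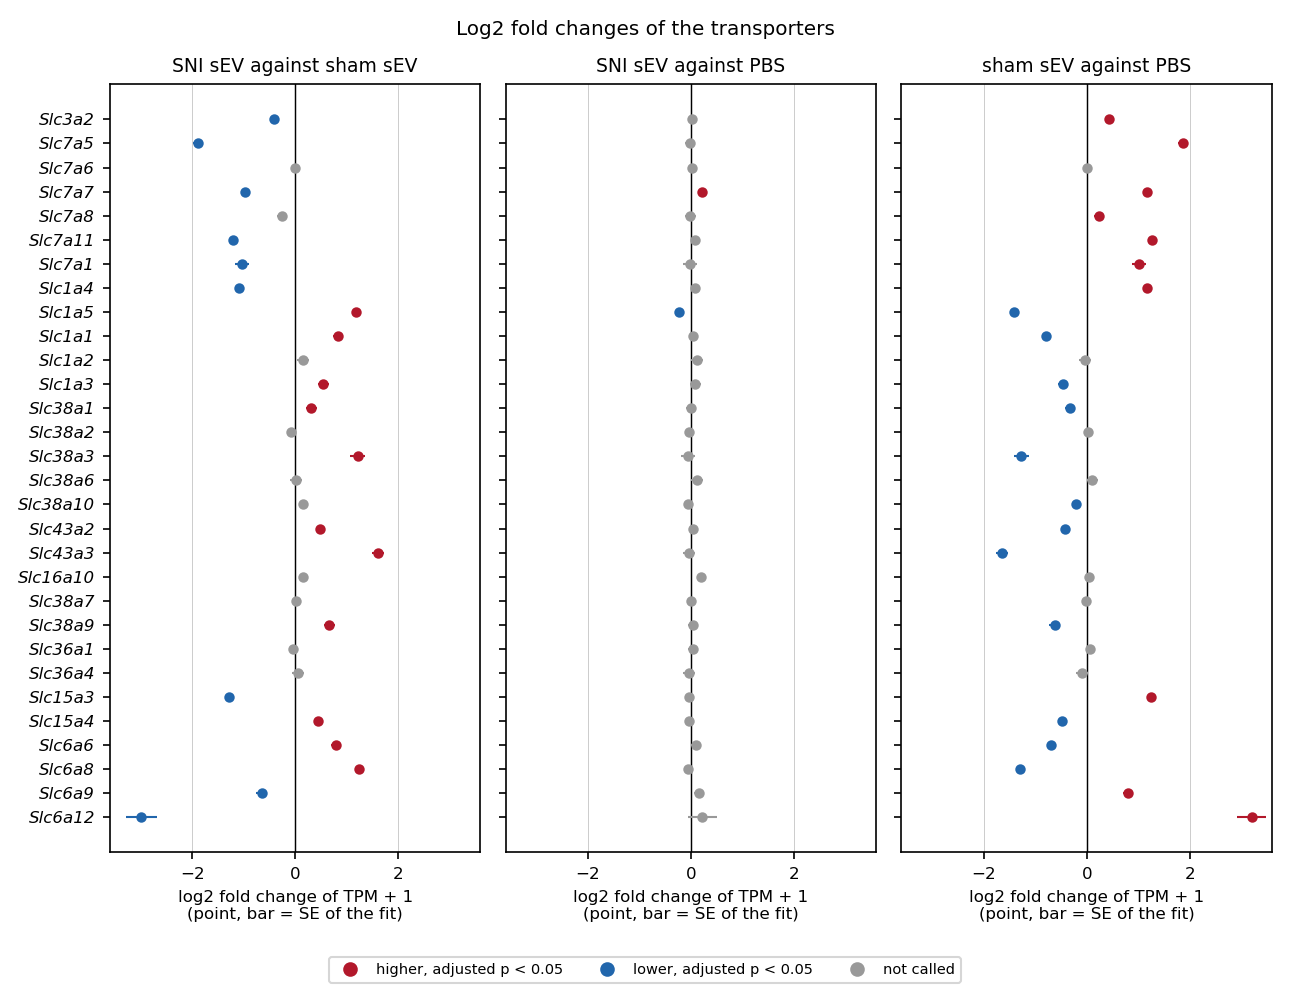
Log2 fold change of TPM + 1 (point) with the SE of the fit (bar) of the 30 tested carriers in SNI-sEV against sham-sEV, SNI-sEV against PBS and sham-sEV against PBS cells (no replicate block), red where higher and blue where lower at a limma adjusted p under 0.05, and gray otherwise. The outer panels hold 20 and 22 colored points up to 3.21 from 0 on the log2 scale, and the middle panel 2 colored points, which both miss the threshold with the block, and none beyond 0.24.

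In SNI-sEV against PBS cells, the log2 fold changes of the 30 tested carriers lay between -0.24 (Slc1a5) and 0.22 (Slc6a12), and 28 did not pass. A p above the threshold does not show that these carriers were equal in both groups. Of the 22 carriers called in sham-sEV against PBS cells, 20 were also called in SNI-sEV against sham-sEV cells, which is the test of the difference between both vesicle treatments. The 2 that were not are Slc7a8 and Slc38a10. Both comparisons use the sham-sEV libraries, so this overlap is in part set by the design. Its share over all genes was not computed. In SNI-sEV against sham-sEV cells, 49.9% of all genes were higher and 15.7% lower.

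Genes that make, use or sense the substrates of these carriers were described through lists, which were set with earlier results of these data known. Of 25 tested genes of the amino acid stress response, the ATF4 targets and the kinases upstream of them, 17 were higher and 5 lower in sham-sEV cells relative to PBS cells. Their median log2 fold change was 0.55, where that of all genes was -0.25. The SNI-sEV against sham-sEV comparison had 5 higher and 16 lower (median -0.59, all genes 0.24). Trib3, a pseudokinase induced by ATF4, was at 7.41 ± 0.388 TPM in SNI-sEV cells, 33.7 ± 1.42 TPM in sham-sEV cells and 7.94 ± 0.552 TPM in PBS cells, 3.88-fold higher in sham-sEV than in PBS cells (limma adjusted p = 4.3e-10). Nupr1, a stress-induced regulator of transcription, was at 37.3 ± 4.24 TPM in SNI-sEV cells, 319.7 ± 4.61 TPM in sham-sEV cells and 26.1 ± 2.96 TPM in PBS cells, 11.9-fold higher in sham-sEV than in PBS cells (limma adjusted p = 4.2e-11). Chac1, which breaks down glutathione, was at 2.73 ± 0.513 TPM in SNI-sEV cells, 19.3 ± 1.58 TPM in sham-sEV cells and 2.96 ± 0.195 TPM in PBS cells, and Mthfd2, a mitochondrial enzyme of folate metabolism, at 49.2 ± 2.46 TPM in SNI-sEV cells, 139.9 ± 2.21 TPM in sham-sEV cells and 44.6 ± 3.24 TPM in PBS cells. Relative to PBS cells, SNI-sEV cells had 2 of the list higher (Eif2ak2 and Nupr1) and 1 lower (Ppp1r15a). Nupr1 was 1.41-fold higher there (limma adjusted p = 0.0077).

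Cystine brought in by Slc7a11 feeds glutathione synthesis. Of 16 tested genes of glutathione metabolism and the NRF2 response, 2 were higher and 6 lower in sham-sEV cells relative to PBS cells (median log2 fold change -0.02). Over all genes 16.5% were higher and 52.5% lower, and the median was -0.25. Gsr, which regenerates reduced glutathione, was at 46.8 ± 0.734 TPM in SNI-sEV cells, 153 ± 7.27 TPM in sham-sEV cells and 48.9 ± 2.83 TPM in PBS cells, 3.08-fold higher in sham-sEV than in PBS cells (limma adjusted p = 3.7e-10). Nfe2l2, which encodes NRF2, was at 168 ± 2.65 TPM in SNI-sEV cells, 106 ± 2.06 TPM in sham-sEV cells and 200.1 ± 12.7 TPM in PBS cells, 1.88-fold lower (limma adjusted p = 3e-08). Gpx1, a glutathione peroxidase, was 1.75-fold lower (limma adjusted p = 5.4e-07), as was Slc40a1, the iron exporter, by 6.10-fold (limma adjusted p = 2e-07). In SNI-sEV against sham-sEV cells 6 of the list were higher and 3 lower, where 49.9% of all genes were higher and 15.7% lower. In SNI-sEV against PBS cells 0 were higher and 2 lower (Nfe2l2 and Hmox1).

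Of 11 tested genes of arginine use, 4 were higher and 7 lower in sham-sEV cells relative to PBS cells. The median log2 fold change was -0.25, the same as that of all genes, of which 52.5% were lower. In the SNI-sEV against sham-sEV comparison 5 were higher and 3 lower, where 49.9% of all genes were higher and 15.7% lower. Relative to PBS cells, SNI-sEV cells had 1 of the list higher (Ass1) and 2 lower (Arg2 and Srm). Nos2, the inducible nitric oxide synthase that uses arginine, was at 0.302 ± 0.276 TPM in SNI-sEV cells, 61.4 ± 5.47 TPM in sham-sEV cells and 0.152 ± 0.0944 TPM in PBS cells, 54.2-fold higher in sham-sEV than in PBS cells on the TPM + 1 scale (limma adjusted p = 1.9e-11). Nos2 had a mean under 1 TPM in both other groups and was tested only because of its sham-sEV libraries, so its call is given as description. Ass1, which recycles citrulline to arginine, was at 25.6 ± 1.76 TPM in SNI-sEV cells, 78.9 ± 4.24 TPM in sham-sEV cells and 18.4 ± 2.49 TPM in PBS cells, 4.14-fold higher (limma adjusted p = 4.8e-09). Odc1, which leads ornithine into polyamines, was at 44.2 ± 3.67 TPM in SNI-sEV cells, 16.9 ± 0.331 TPM in sham-sEV cells and 51.0 ± 3.64 TPM in PBS cells, 2.90-fold lower (limma adjusted p = 3.8e-09).

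Of 10 tested genes of glutamate and glutamine metabolism, 1 was higher and 8 were lower in sham-sEV cells relative to PBS cells (median log2 fold change -0.37, all genes -0.25). In SNI-sEV against sham-sEV cells, 7 of them were higher and 1 lower. The shares over all genes were 16.5% higher and 52.5% lower in the first of these comparisons, and 49.9% and 15.7% in the second. Glul, glutamine synthetase, was at 181 ± 14.9 TPM in SNI-sEV cells, 60.8 ± 2.06 TPM in sham-sEV cells and 182 ± 25.5 TPM in PBS cells, 2.94-fold lower in sham-sEV than in PBS cells (limma adjusted p = 4.9e-08). Got2, the mitochondrial aspartate aminotransferase, was at 63.8 ± 2.05 TPM in SNI-sEV cells, 41.6 ± 0.989 TPM in sham-sEV cells and 70.2 ± 2.49 TPM in PBS cells. Of 28 tested genes of amino acid sensing by mTORC1, 4 were higher and 17 lower in sham-sEV cells relative to PBS cells (median -0.32), near the -0.25 of all genes, and 14 were higher and 4 lower in SNI-sEV than in sham-sEV cells (median 0.24, as for all genes). Castor1, an arginine sensor, was at 5.57 ± 0.389 TPM in SNI-sEV cells, 1.40 ± 0.287 TPM in sham-sEV cells and 7.55 ± 0.592 TPM in PBS cells, and Rragd, a Rag GTPase, at 17.7 ± 1.79 TPM in SNI-sEV cells, 5.57 ± 0.464 TPM in sham-sEV cells and 17.6 ± 2.97 TPM in PBS cells. Lamtor3 and Castor1 were lower in SNI-sEV than in PBS cells.

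Of 8 tested osmolyte and creatine genes, 5 were lower and 0 higher in sham-sEV cells relative to PBS cells, where 52.5% of all genes were lower. The median log2 fold change was -0.57, where that of all genes was -0.25. Of the same 8 genes, 5 were higher and 0 lower in SNI-sEV than in sham-sEV cells, where 49.9% of all genes were higher and 15.7% lower. Gamt, which makes creatine, was at 34.4 ± 1.24 TPM in SNI-sEV cells, 11.9 ± 2.16 TPM in sham-sEV cells and 41.6 ± 5.08 TPM in PBS cells, 3.33-fold lower in sham-sEV than in PBS cells (limma adjusted p = 8.7e-08). Ckb, the brain creatine kinase, was at 426 ± 10.3 TPM in SNI-sEV cells, 153 ± 5.71 TPM in sham-sEV cells and 440.1 ± 52.9 TPM in PBS cells. Slc5a3, the carrier of the osmolyte inositol, was at 7.76 ± 1.21 TPM in SNI-sEV cells, 3.45 ± 0.0845 TPM in sham-sEV cells and 6.52 ± 1.14 TPM in PBS cells, 1.67-fold lower in sham-sEV than in PBS cells (limma adjusted p = 0.00023), opposite to Slc6a12. Slc6a12 and Slc5a3 are both known targets of the tonicity factor NFAT5, whose part in either change was not tested. Of 10 genes of tryptophan breakdown and charging, 2 were tested, and Wars, a tryptophanyl-tRNA synthetase, was 1.53-fold higher in sham-sEV than in PBS cells (limma adjusted p = 1.4e-06) and 1.54-fold lower in SNI-sEV than in sham-sEV cells.

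Of 41 further amino acid and solute carriers outside the 34, 22 were tested. In sham-sEV against PBS cells 5 were higher and 15 lower (median log2 fold change -0.56, all genes -0.25), where 16.5% of all genes were higher and 52.5% lower. In SNI-sEV against sham-sEV cells 15 were higher and 6 lower (median 0.56, all genes 0.24), where the shares over all genes were 49.9% and 15.7%. Slc7a2, the cationic carrier that supplies arginine to activated macrophages, was at 9.62 ± 0.785 TPM in SNI-sEV cells, 103 ± 12.9 TPM in sham-sEV cells and 10.1 ± 1.75 TPM in PBS cells, 9.47-fold higher in sham-sEV than in PBS cells (limma adjusted p = 1.1e-09). Slc6a13, a GABA carrier of the same family as Slc6a12, was at 0.205 ± 0.154 TPM in SNI-sEV cells, 4.37 ± 0.0671 TPM in sham-sEV cells and 0.104 ± 0.0454 TPM in PBS cells. Its mean was under 1 TPM in both other groups, so it was tested only because of its sham-sEV libraries. Slc17a5, the lysosomal carrier of sialic acid, was at 31.0 ± 1.12 TPM in SNI-sEV cells, 12.9 ± 0.351 TPM in sham-sEV cells and 32.6 ± 2.16 TPM in PBS cells, and Slc7a4 at 7.90 ± 0.752 TPM in SNI-sEV cells, 0.944 ± 0.102 TPM in sham-sEV cells and 9.46 ± 0.187 TPM in PBS cells. Slc25a22 alone passed in SNI-sEV against PBS cells, where it was higher.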

How the data were processed

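Messenger RNA was measured in 10 libraries of mouse cortical microglia. Per the labels' protocols, RNA was purified on columns with a DNase step and sequenced from stranded mRNA libraries. The tools named, per the submitters' processing notes, are bcl2fastq, BWA, Subread, featureCounts 2.0.2, with the mm10 build. Their roles, the annotation and the treatment of near-identical copies are not given in the sources used here. The authors deposited TPM per gene symbol, 1 column per library. TPM keeps no read total, so depth is unknown and no counting interval was computed. The authors' deposited table of differential genes gives a signed fold change (a score, negative where lower) and an FDR, an adjusted p-value, for 2375 genes. Its test is not stated.

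The 34 carriers and all lists were chosen with earlier results of these data known. The fit used limma 3.58.1 in R 4.3.3 on log2(TPM + 1) of the 14806 genes that averaged 1 TPM or more, with a mean for each group, eBayes with a trend, and the spread estimated over all 3 groups. Tests were two-sided, with Benjamini-Hochberg adjustment over all genes tested and a threshold of 0.05. Errors beside TPM are SD, those beside log2 fold changes are SE of the fit, and folds are on the TPM + 1 scale. The fit was tested on simulated data. Carriers called and among the 12 largest changes of a comparison or the 8 highest means are given per library, others by ranges. Of each list, up to 4 called genes of smallest p whose groups do not overlap could be named. Genes named only as the 3 or fewer called in SNI-sEV against PBS cells complete those counts. So do the genes of the amino acid stress response named only as lower in sham-sEV cells. Coordinates are GRCm38 (GENCODE vM21), matched by symbol for all 34. Promoters are RefSeq's. Figures were drawn with matplotlib 3.10.9.

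The alternatives changed the pseudocount (0.1, 0.5), the filter (none, or a mean of 5 TPM or more) and the scaling (median of ratios, quantile normalization), or used only the 2 groups compared, robust eBayes, the replicate number as a block (with all libraries, and with the 2 groups compared), and each library left out. Deviations from the group mean correlated across genes at 0.154 to 0.363 in the 3 same-numbered pairs of SNI-sEV and PBS libraries, which were taken as paired by these data. Pairs with different numbers gave -0.351 to 0.220. Same-numbered pairs of sham-sEV and PBS (-0.0176 to 0.0512) and of SNI-sEV and sham-sEV libraries (0.0172 to 0.0772) were not. A planned comparison of protein sequences was not run.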

Additional observations from a re-analysis of the deposited data

Results flagged for a closer look

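With 4 libraries, the PBS group was checked carrier by carrier for single libraries far from the rest, and 3 of the 30 tested carriers stood out. Chance gives about 1 in 20 such groups. Slc7a6 was at 7.18 TPM in PBS replicate 1 and at 8.42 to 8.59 TPM in the other PBS libraries. Slc38a1 was at 16.8 TPM in PBS replicate 1 and at 22.7 to 23.1 TPM in the others. Slc38a10 was at 119 TPM in PBS replicate 4 and at 103 to 105 TPM in the others.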

How the results depend on the processing

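Over 20 alternatives, 62 of the 90 carrier and comparison pairs kept their call and any called direction. Of 1791 alternative values, 1694 kept them, 50 lost a call, 35 gained one and 12 turned. Another 71 changed sign without passing in either fit. The values that turned came from the scaling. With median of ratios, SNI sEV against sham sEV gave log2 fold changes of -0.28 for Slc7a6, -0.28 for Slc38a6, -0.29 for Slc38a7, -0.16 for Slc38a10, -0.26 for Slc36a4 and -0.16 for Slc16a10, and sham sEV against PBS gave 0.30 for Slc38a7 and 0.11 for Slc38a10. With quantile normalization, the first gave -0.30 for Slc7a6 and -0.28 for Slc38a6, and the second 0.31 for Slc1a2 and 0.11 for Slc38a7.

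With median of ratios, 18 carriers were lower in SNI sEV against sham sEV (9 as reported), and 16 were higher in sham sEV against PBS (10 as reported). In SNI sEV against PBS, 1 carrier was higher and 1 lower as reported. Higher were 2 with either scaling, 0 with no filter, 0 with only the 2 groups, 0 with the replicate block in those 2 groups, and 0 to 1 without 1 library. Lower were 0 with median of ratios, 0 with only the 2 groups, 0 with the replicate block in all or in 2 groups, and 0 to 1 without 1 library. Over all genes, SNI sEV against sham sEV gave 7388 higher and 2319 lower as reported, 3920 and 4820 with median of ratios, and 4373 and 4130 with quantile normalization. Sham sEV against PBS gave 2437 higher and 7768 lower, 5003 and 4345 with median of ratios, and 4307 and 4883 with quantile normalization. SNI sEV against PBS gave 440 higher, with 280 to 503 without 1 library, and 350 lower, with 155 for only the 2 groups, 127 for the replicate block in them and 93 to 653 without 1 library. The cause of these differences was not tested.

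The replicate block in all libraries gave 13 higher and 10 lower carriers in SNI sEV against sham sEV and 10 and 12 in sham sEV against PBS. Those numbers did not pair the libraries in these 2 comparisons. In fits without 1 library of a group of 3, the spread is shared by all groups. TPM carries no read depth, so precision is known from the spread between libraries alone.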
